A study of Mus musculus with 76 samples.

Results

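The genes Hoxa9, Hoxa10, Meis1, Hlf, Skap2 and Msi2 were followed across 76 single mouse cells called iHPCs. These 6 genes were taken by name from the 15192 genes of the deposited table, and all 6 were listed there. Per the labels, the pluripotent cells carried inducible Runx1, Hoxa9 and Hoxa10, and their progeny could engraft C57BL/6 recipients and form mature blood cells. The sequenced cells were sorted from culture, so all 76 carried the same 3 inducible factors. No control cell, untreated cell or second condition was labelled, and the labels name no pluripotent line, inducing agent or dose. Since the labels name no separate cultures, animals or sorts, the 76 cells count as 1 sample. Cells were therefore not used as replicates, and all relations across them are descriptions without p-values.

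Hox proteins are homeodomain transcription factors that bind DNA together with partner homeodomain proteins of the TALE class, chiefly the Meis and Pbx families. Hoxa9 and Hoxa10 lie side by side at the posterior end of the HoxA cluster, are active in blood stem and progenitor cells, and are turned down as blood cells mature. Meis1 encodes the partner best known from blood stem cells and leukaemia, where it raises the same target genes as Hoxa9. Hlf encodes a PAR bZIP transcription factor that marks long-lived blood stem cells, and Msi2 encodes an RNA-binding protein that sustains them. Skap2 encodes a cytoplasmic adaptor of Src kinase and integrin signalling in myeloid cells, and it flanks the HoxA cluster on the anterior side.

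In GRCm38 (mm10) coordinates of the GENCODE annotation, Hoxa9 spans chr6:52223100-52231089, Hoxa10 spans chr6:52231197-52240854 and Skap2 spans chr6:51857422-52012549, all on the minus strand. Hoxa10 begins 108 bases after the end of Hoxa9 in these coordinates, and Skap2 lies 210.6 kb from Hoxa9. The other 3 genes lie on the minus strand of chromosome 11, with Meis1 at chr11:18879817-19018985, Msi2 at chr11:88339382-88718513 and Hlf at chr11:90336536-90390895. Msi2 and Hlf are 1.62 Mb apart. Exons of Hoxa9 overlap those of Mir196b on the same strand. Exons of Meis1 overlap Gm37818 on the same strand over 1029 bases and Gm16140 on the opposite strand over 896 bases. None of the 3 is listed in the table, and reads from the shared bases cannot be assigned with certainty. The longest run of identical bases shared by the longest coding transcripts of Hoxa9 and Hoxa10 is 17 bases. Transcripts of the introduced and the chromosomal Hoxa9 and Hoxa10 cannot be told apart in a table of genes.

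The 250 bases before the RefSeq start of Meis1, Skap2 and Hlf (GRCm38.p6) are shown because the report turns on the cofactor, the chromosomal neighbour and the rare factor found beside the Hox genes, none of which the labels name as introduced. The windows are chr11:19018970-19019219 for Meis1, chr6:52012550-52012799 for Skap2 and chr11:90390918-90391167 for Hlf, each read 5′ to 3′ on the minus strand. Capitals mark matches to a searched motif.
Meis1 promoter: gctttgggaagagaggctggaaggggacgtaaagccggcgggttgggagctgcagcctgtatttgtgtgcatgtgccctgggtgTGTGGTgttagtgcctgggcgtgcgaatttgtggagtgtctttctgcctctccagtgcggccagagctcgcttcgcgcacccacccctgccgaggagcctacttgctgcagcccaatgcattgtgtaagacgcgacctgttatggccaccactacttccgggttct
Skap2 promoter: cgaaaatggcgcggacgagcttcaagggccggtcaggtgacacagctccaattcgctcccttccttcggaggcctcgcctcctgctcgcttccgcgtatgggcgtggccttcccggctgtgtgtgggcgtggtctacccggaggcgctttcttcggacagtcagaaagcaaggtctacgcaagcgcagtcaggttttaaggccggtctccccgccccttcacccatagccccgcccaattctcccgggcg
Hlf promoter: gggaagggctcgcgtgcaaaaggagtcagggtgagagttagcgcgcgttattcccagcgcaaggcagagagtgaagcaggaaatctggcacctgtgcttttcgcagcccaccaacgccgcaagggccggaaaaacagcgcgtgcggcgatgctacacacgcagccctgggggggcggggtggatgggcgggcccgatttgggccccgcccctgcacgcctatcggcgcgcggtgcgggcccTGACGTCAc
The motifs searched on both strands were TGACAG (Meis), TGATNNAT (Hox with Pbx), TGTGGT (Runx), TTACNTAA (PAR bZIP) and TGACGTCA (cyclic AMP response element), the last chosen after the Hlf sequence was seen. Meis1 held TGTGGT, which starts 166 bases before the gene's start, and Hlf held TGACGTCA, which starts 9 bases before it. TGACGTCA also occurred in the windows of Msi2, and Skap2 held none of the 5 motifs. Of 32851 promoter windows of this length, 15.9% held the Meis, 7.68% the Hox with Pbx, 14.05% the Runx, 2.06% the PAR bZIP and 1.55% the cyclic AMP motif. A match describes the letters only, and the absence of one says nothing about binding.

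The values are TPM, transcripts per 1000000, which scale for gene length and for the total of each cell. Levels of different genes can therefore be set side by side, but sequencing depth is unknown. For Runx1, Hoxa9 and Hoxa10 this holds only if the introduced transcripts have the length used for the gene, which is not known here. Detection of a gene means a value of at least 1 TPM. A cell held 2465 to 5992 detected genes (median 4182.5). Zeros are frequent: of 8 genes that every cell uses, Tbp was detected in 36 cells, Polr2a in 22 and Tfrc in 19, so a 0 can be a failed capture. The rest of the 8 were detected more often, Gusb in 61 cells and Hprt, Pgk1, Ppia and Actb in all 76. All 12 pan-haematopoietic markers were detected in at least 50% of cells, and 7 in all (summed level 4917 to 14935 TPM). Of the markers of other cells, 5 of 10 pluripotency genes were listed and Pou5f1, Esrrb, Tdgf1 and Klf4 were at 0 cells. Of 9 stromal markers 5 were listed, with Col1a1, Col1a2 and Cxcl12 in 0 cells and Pdgfrb in 22. Of 11 endothelial markers 8 were listed, with Tek and Kdr in 0 cells, Egfl7 in 73 and a summed level of 2.85 to 2159 TPM. Plvap, an endothelial marker in 18 cells, had a rho of 0.35 with Hoxa10. Cd53, a pan-haematopoietic marker, had 0.37 with Hoxa10 and -0.33 with Meis1. The part of either in the values of the 6 genes was not tested. Of 11 mature blood markers, 6 were in 0 cells, among them S100a8, S100a9 and Cd3e, and Itga2b, the most frequent, was in 10. The members' rank correlations with the number of genes detected per cell lay between -0.15 and 0.097.

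Skap2 was by far the most abundant of the 6 genes and the Hox genes were among the lowest. Skap2 ran from 0 to 1029 TPM (median 229 TPM). It was detected in 69 of 76 cells (90.8%, exact 95% interval 81.9 to 96.2%, which covers the counting of cells only). Its mean of 284 ± 271 TPM (SD over 76 cells) was above that of 94.9% of listed genes. Skap2 exceeded Hoxa10 in 73 cells and Runx1 in 56. It was at 10 TPM or more in 61 cells and lower in 15.

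Msi2 was the next most frequent, from 0 to 53.6 TPM (median 3.45 TPM), and was detected in 44 cells (57.9%, 46.02 to 69.1%). Its values were spread, with 17 cells between 1 and 10 TPM and 27 at 10 TPM or more. The mean was 8.89 ± 11.5 TPM.

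Hoxa10 ran from 0 to 57.4 TPM with a median of 0 and was detected in 28 cells (36.8%, 26.1 to 48.7%). Hoxa9 ran from 0 to 77.4 TPM, also with a median of 0, and was detected in 18 cells (23.7%, 14.7 to 34.8%). In the cells where each was detected, the median was 17.6 TPM for Hoxa10 and 11.9 TPM for Hoxa9. The means over all 76 cells, 6.25 ± 11.3 TPM and 4.96 ± 13.3 TPM, were smaller than their SDs. Runx1, introduced along with the 2 Hox genes, ran from 0.304 to 344.01 TPM (median 100.4 TPM) in the same cells. It was under 1 TPM in 3 cells, and none of these held a Hox gene.

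Meis1 was either clearly on or near 0. It ran from 0 to 223.6 TPM with a median of 0 and was detected in 21 cells (27.6%, 17.99 to 39.1%). No cell lay between 4.51 and 15.3 TPM: 17 cells were above the gap, and another 17 had values above 0 but under it. Such a gap was not particular to Meis1: no cell lay between 5.25 and 14.1 TPM for Hlf or between 7.92 and 16.1 TPM for Skap2. The median of Meis1 in the 21 cells was 47.2 TPM, higher than the 17.6 TPM of Hoxa10 in its 28 cells. Its mean was 14.5 ± 34.4 TPM. Low values, above 0 and under 10 TPM, were set beside the titles. Of the 15 cells that share the letter or number of that cell, C3, 7 had a low value (46.7%), against 10 of the 60 others (16.7%). For the other 5 members the 2 shares were closer or ran the other way. They were 6.67% against 13.3% for Hoxa9, 18.8% against 16.9% for Hoxa10 and 0% against 3.33% for Hlf. They were 18.8% against 15.3% for Skap2 and 21.4% against 34.4% for Msi2. The part of carry-over between libraries in the Meis1 values was not tested.

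Hlf was the rarest, from 0 to 39.97 TPM, with a median of 0. It was detected in 8 cells (10.5%, 4.66 to 19.7%) and had a mean of 2.55 ± 8.48 TPM. By mean TPM the order was Skap2, Meis1, Msi2, Hoxa10, Hoxa9 and Hlf. Each neighbouring pair in this order differed by less than the larger of their SDs. The lower quartile of Skap2, 82.8 TPM, nevertheless lay above the upper quartile of every other member, of which the highest was 16.1 TPM (Msi2).

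**Figure D1:**
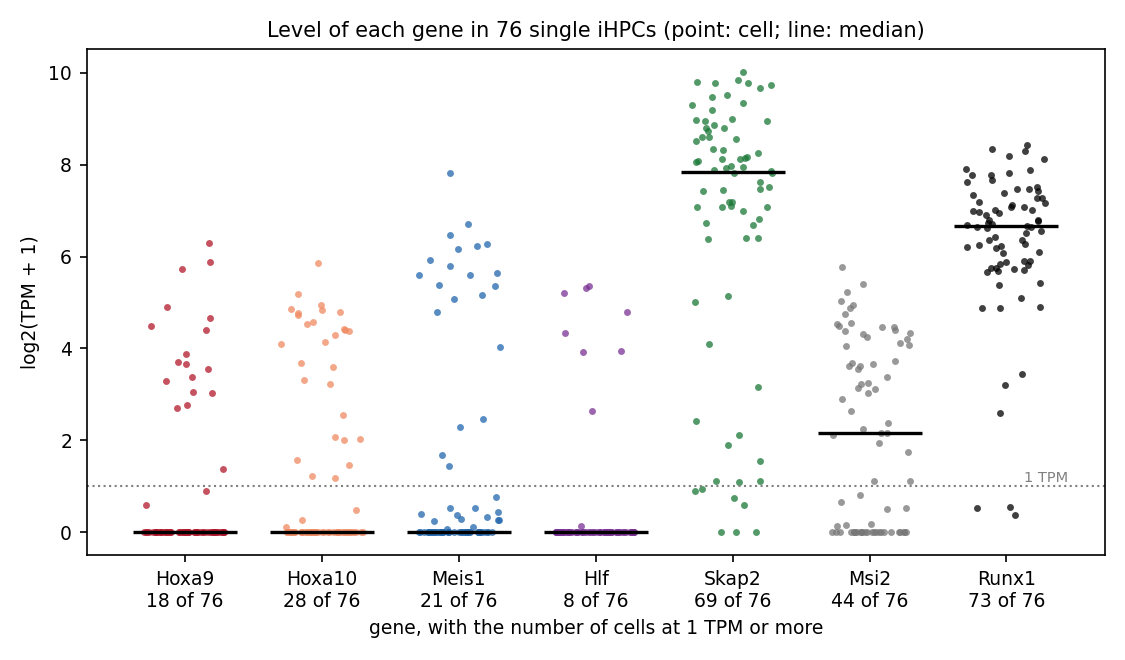
Level of the 6 genes and of Runx1 on the log2(TPM + 1) scale (y axis), 1 point per cell, the horizontal line at the median of 76 cells and the dotted line at 1 TPM. Skap2 (69 cells) and Runx1 (73 cells) are high in most cells. Meis1, Hlf and Skap2 each have a gap between low and higher values, and Hoxa9, Hoxa10, Meis1 and Hlf have a median of 0.

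The first relation asked whether cells that hold one Hox gene also hold the other. Both were detected in 16 cells, 88.9% of the Hoxa9 cells and 57.1% of the Hoxa10 cells, where independent shares would give 6.63. Hoxa10 alone was detected in 12 cells and Hoxa9 alone in 2, cell B7 with 51.6 TPM and cell C9 with 21.4 TPM. Within the 16 cells neither gene led: Hoxa10 was the higher in 8 and Hoxa9 in 8, and the ratio of Hoxa10 to Hoxa9 ran from 0.173 to 11.5 with a median of 1.01. In 8 of the 16 the 2 levels lay within a factor of 2. Cell E10, for example, held 28.7 TPM of Hoxa9 and 29.7 TPM of Hoxa10, and cell G8 held 77.4 and 35.6 TPM.

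Across all 76 cells the Spearman correlation of Hoxa9 with Hoxa10 was 0.55 (Pearson r of log2(TPM + 1) 0.55). Cells share 1 table, 1 group and a fixed total of TPM, and carry many zeros, so the value is a description. Among 8033 genes detected in at least 10 cells, Hoxa10 had the highest rho with Hoxa9, and 0.722% reached 0.3 or more. Skap2 (0.34) also reached it, but not by Pearson r (0.25), with values under 10 TPM set to 0 (0.249), within title numbers 7 to 11 (0.28) or with Runx1 regressed out (0.22). None of the 5 other members was at -0.3 or less, where 0.622% of genes were. The rho of Hoxa9 with Hoxa10 was 0.73 within title numbers 2 to 6 and 0.44 within 7 to 11. With the rank of Runx1 regressed out of both genes it was 0.36. Runx1 itself was at 0.3 or more with 4 of the 6 members (Hoxa10 0.63, Hoxa9 0.49, Hlf 0.39 and Skap2 0.34), where 1.41% of genes were, and at -0.3 or less with Meis1, where 2.02% were. At 10 TPM both genes were found in 9 cells against 2.61 from independent shares.

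Meis1 was rarely found where the Hox genes were. Of the 30 cells with either Hox gene 2 held Meis1, where independent shares would give 8.29, and 19 of the 21 Meis1 cells held neither Hox gene. The 2 cells were A3, with 26.7 TPM of Meis1 beside 7.21 TPM of Hoxa9 and 3.002 TPM of Hoxa10, and C5, with 47.2 TPM beside 1.61 and 18.6 TPM. Both hold all 3 genes. The cell highest in Meis1, C3, was at 0 in both Hox genes, as were C10 (102.9 TPM), H2 (87.2 TPM) and D2 (75.8 TPM). The cell highest in Hoxa9, G8, and that highest in Hoxa10, D8, were at 0 in Meis1. With detection at 10 TPM, which leaves out the low Meis1 values, 1 of 17 Meis1 cells held a Hox gene, C5, against 4.47 from independent shares. With any value above 0 counted, 8 cells held both Meis1 and Hoxa10 and 5 held both Meis1 and Hoxa9, where 13.9 and 8.95 would follow from the separate shares. Shared cells were not counted for all genes, so how unusual these counts are among genes is not known.

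The rho of Hoxa10 with Meis1 was -0.36 and that of Hoxa9 with Meis1 -0.296. Hoxa10 was the eighth lowest of 8033 genes by rho with Meis1, where 0.523% were at -0.3 or less. With Hoxa10, 1.06% were at -0.3 or less, among them Meis1. Within title numbers 2 to 6 the rho of Hoxa9 with Meis1 was -0.072, within numbers 7 to 11 it was -0.45, and with Hoxa10 the values were -0.28 and -0.41. With values under 10 TPM set to 0 the rho of Hoxa10 with Meis1 was -0.23. Meis1 also ran against Runx1 (rho -0.40), and with the rank of Runx1 regressed out the values were -0.15 for Hoxa10 and -0.12 for Hoxa9. Of the 17 cells with Meis1 at 10 TPM or more, 3 had Runx1 above its median of 76 cells, and their Runx1 ran from 0.474 to 127.9 TPM.

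Hlf was found beside a Hox gene in 7 of the 8 cells that held it. Of its 8 cells, 7 held Hoxa10 and 5 held Hoxa9 as well, where independent shares would give 2.95 for Hoxa10 and 1.89 for Hoxa9. The 3 cells highest in Hlf were B8 with 39.97 TPM, F5 with 38.6 TPM and G8 with 35.9 TPM. B8 held 13.7 TPM of Hoxa9 and 26.6 TPM of Hoxa10, and G8 was the cell highest in Hoxa9. F5 was the exception and was at 0 in both Hox genes. The other 5 cells were E6 (26.6 TPM of Hlf, 10.7 of Hoxa9, 11.8 of Hoxa10), F7 (19.3, 7.34 and 1.27 TPM), E9 (14.4, 0 and 20.5 TPM), H10 (14.1, 24.5 and 27.7 TPM) and G2 (5.25, 0 and 3.23 TPM). None of the 8 held Meis1, which allows a share of up to 3.95% of 76 cells by 3 counts, and independent shares would give 2.21 cells. Runx1 ran from 101.4 to 344.01 TPM in the 8 cells, at or above its median of 100.4 TPM in each.

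The rho of Hlf was 0.31 with Hoxa10 and 0.28 with Hoxa9, and 0.39 with Runx1. Of 8034 genes, 0.871% reached 0.3 or more with Hlf. By rho with Hlf, Runx1 ranked 4 from the top, Hoxa10 53 and Hoxa9 93. With the rank of Runx1 regressed out, the rho fell to 0.095 with Hoxa10 and 0.12 with Hoxa9. The rho with Hoxa10 was also under 0.3 in cells with at least 3500 genes (0.299) and when the 2 cells most distant from the Hoxa10 median were dropped (0.28). None of the other members was at -0.3 or less with Hlf, where 0.299% of genes were. At 10 TPM, 5 of 7 Hlf cells held a Hox gene against 1.84 from independent shares, and each value rests on few cells.

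**Figure D2:**
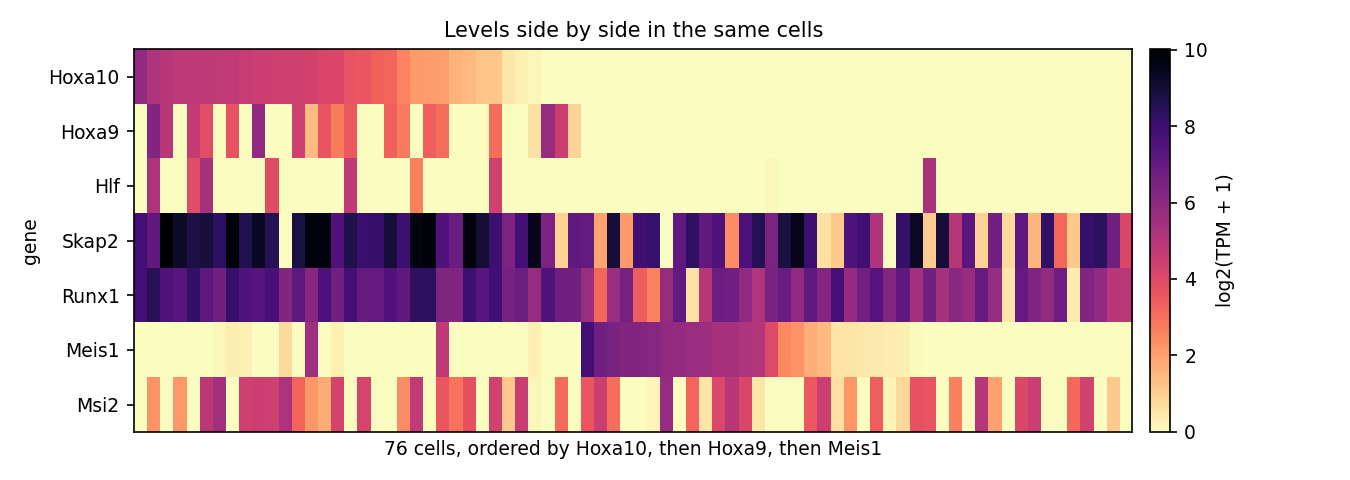
Levels on the log2(TPM + 1) scale (colour) of the 6 genes and Runx1 (rows) in the 76 cells (columns), ordered by Hoxa10, then Hoxa9, then Meis1. The Meis1 cells lie to the right of the Hox cells except for 2, and 7 of the 8 Hlf cells lie among the 30 Hox cells on the left.

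Skap2, the chromosomal neighbour, had a median of 406.7 TPM in the 28 cells with Hoxa10, against 229 TPM over all 76. It was found in 27 of the 28 Hoxa10 cells, but independent shares would give 25.4, since it was in most cells. The levels had a rho of 0.51 with Hoxa10 and 0.34 with Hoxa9. Among 8033 genes only Runx1 (0.63) and Hoxa9 had a higher rho with Hoxa10 than Skap2, and 0.61% reached 0.3 or more. Conversely, Hoxa10 was first by rho with Skap2, where 0.871% reached 0.3 and 0.934%, with no member among them, were at -0.3 or less. In all, 3 of the 5 other genes (Hoxa9, Skap2 and Hlf) were at 0.3 or more with Hoxa10 and 1 (Meis1) was at -0.3 or less.

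Of the 7 cells with Skap2 at 800 TPM or more, a limit chosen after the values were seen, all 7 held Hoxa10, from 1.76 to 29.7 TPM, and 5 held Hoxa9. E10 was the highest, with 1029 TPM of Skap2, and was followed by B3 with 914.6 TPM. Of the 15 cells with Skap2 under 10 TPM, 2 held a Hox gene: A11, with Skap2 at 0 and Hoxa10 at 20.2 TPM, and C9, with Skap2 at 0.868 TPM and Hoxa9 at 21.4 TPM. High Skap2 without Hox genes also occurred, as in C11 with 733 TPM, where both Hox genes were at 0. The rho with Hoxa10 was 0.58 and 0.47 within the 2 ranges of title numbers and 0.41 with the rank of Runx1 regressed out. The Pearson r was lower, at 0.39.

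The other listed genes near the Hox pair had lower rho values with Hoxa10. Of 55 annotated genes within 500 kb, 17 of them coding, 6 were listed in the table. Besides the 3 members these were Hoxa3, at 0 in every cell, and on the far side Hibadh and Tax1bp1. Hibadh, a mitochondrial enzyme of valine breakdown 305.4 kb from Hoxa10, was detected in 73 cells (median 227 TPM, close to that of Skap2) and had a rho of 0.19 with Hoxa10. Tax1bp1, an autophagy receptor 472.9 kb away, was detected in 71 cells (median 210.7 TPM) and had a rho of 0.064. The difference between neighbours was not tested. Of the 16 genes of the HoxA list, 4 were listed, and 3 of 31 genes of the other Hox clusters and Cdx: Hoxb4, Hoxc6 and Hoxd3, each in 0 cells. The rest are not analysed here.

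**Figure D3:**
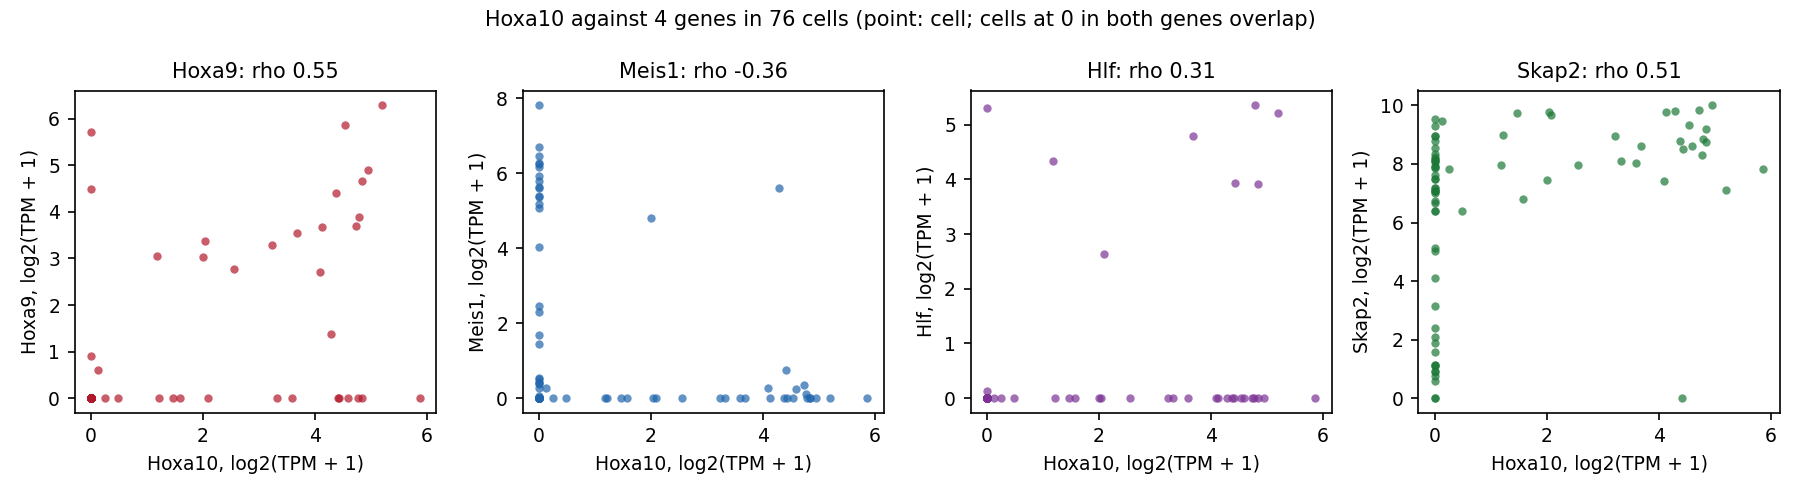
Hoxa10 (x axis) against Hoxa9, Meis1, Hlf and Skap2 (y axes), all on the log2(TPM + 1) scale, 1 point per cell. Hoxa9 and Skap2 are higher where Hoxa10 is detected (rho 0.55 and 0.51). Hlf is detected in 7 of those 28 cells and in 1 other cell (rho 0.31). Meis1 is at or near 0 in all but 2 of the 28 cells (rho -0.36).

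Msi2 was near the count from independent shares with every other member. It was found in 19 Hoxa10 cells against 16.2 from independent shares, in 11 Hoxa9 cells against 10.4, in 12 Meis1 cells against 12.2 and in 6 Hlf cells against 4.63. Its rho was 0.11 with Hoxa10, -0.11 with Hoxa9, 0.086 with Meis1, 0.10 with Hlf and -0.19 with Skap2. None reached 0.3 in size, where 0.299% of genes were at 0.3 or more and 0.635% at -0.3 or less. Its cell of highest level, B11 (53.6 TPM), held Meis1 at 59.5 TPM and no Hox gene. The rho of Msi2 with Meis1 was -0.18 within title numbers 2 to 6 and 0.27 within 7 to 11, so the 2 ranges differed in sign.

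Counting all 6 genes, 2 cells held none, 12 held 1, 29 held 2, 19 held 3, 9 held 4 and 5 held 5, and no cell held all 6. Skap2 was the only member in 11 cells. In all, 26 cells held neither Hox gene, nor Meis1, nor Hlf.

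**Figure D4:**
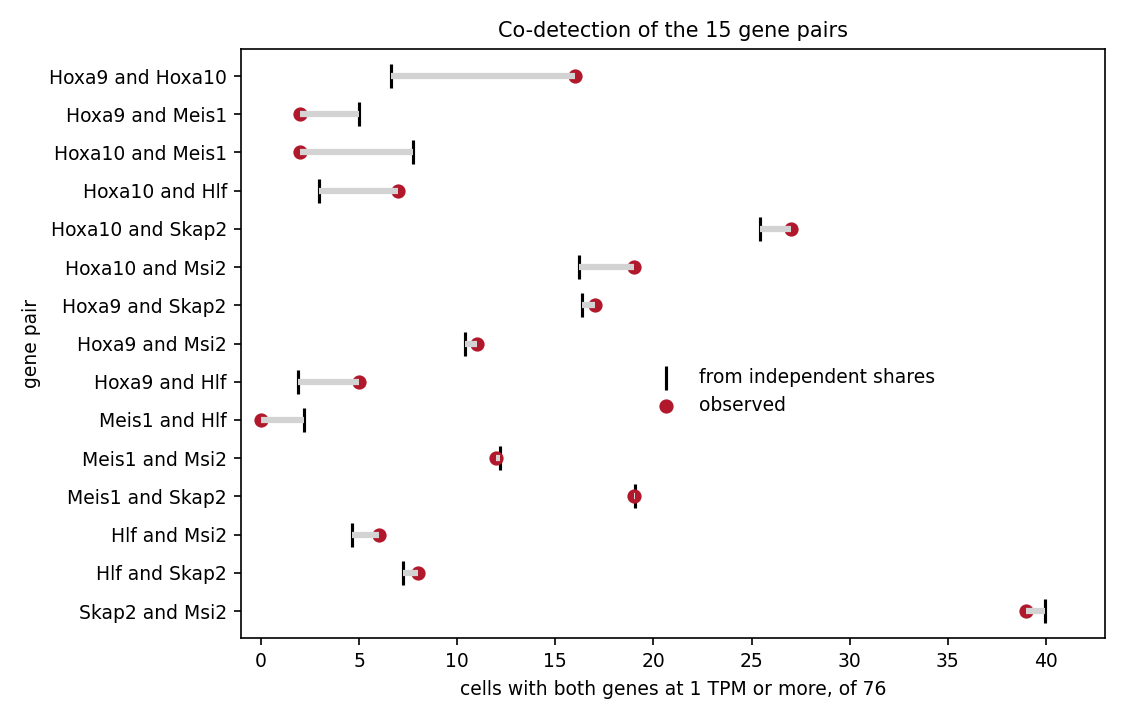
Number of cells, of 76, with both genes of each of the 15 pairs at 1 TPM or more (red point) and the number independent shares would give (black bar). Hoxa9 with Hoxa10 (16 against 6.63) and the 2 Hox genes with Hlf lie above, the 2 Hox genes with Meis1 (2 each) and Meis1 with Hlf (0) lie below, and pairs with Skap2 or Msi2 lie close.

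Other partners of Hox proteins were scarce. Of 11 TALE genes 10 were listed. Meis2, Meis3 and Pbx3 were in 0 cells, and Pbx2 and Pbx4 were in 12 and 11 cells. Pknox1, a Meis relative, was in 10. The most frequent were Tgif1 (45 cells, median 66.4 TPM) and Tgif2 (25 cells), which encode TALE repressors. Of the 6 in at least 10 cells, 0 were at 0.3 or more with Hoxa10 (0.61% of all genes) and 1, Meis1, was at -0.3 or less (1.06% of all genes). With 6 genes, a count of 0 does not set the list apart from other genes. The highest were Pknox1 (0.075) and Pbx2 (0.039). The median of the 6 was -0.024, as over all genes. Tgif1 had a rho of 0.31 with Meis1, where 1.08% of genes reached 0.3.

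Of the genes known from other studies as targets of Hoxa9 or Meis1, Lmo2 and Cd34 were at 0.3 or more with a Hox gene. All 24 were listed, and Mecom, Trib2 and Dach1 were in 0 cells. The most frequent were the surface gene Cd34 (76 cells), the cyclin gene Ccnd3 (74), the inhibitor of E proteins Id2 (73) and the kinase gene Cdk6 (62). Of the 17 in at least 10 cells, 2 were at 0.3 or more with Hoxa10: Lmo2, a bridging factor of blood transcription complexes (0.37), and Cd34 (0.32). That is 2 of 17, against 0.61% of all genes, and 1 of the 17, Meis1, was at -0.3 or less, against 1.06%. The list was chosen with earlier results of these data known, so its counts are no independent evidence. Lmo2 had a higher rho with Runx1 (0.60) than with Hoxa10, and the part of Runx1 in these values was not tested. The median of the 17 was -0.035, against -0.024 over all genes. With Hoxa9, 1 of 17 reached 0.3, Lmo2 again at 0.37, against 0.722% of all genes. With Meis1, 0 of 16 were at 0.3 or more (1.08% of all genes) and 0 at -0.3 or less (0.523%). Flt3, the cytokine receptor gene often placed under Meis1, had 0.26 and Myb 0.23.

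Among blood stem cell regulators, a list of 21 that includes every member except Skap2, Runx1 (73 cells), Lyl1 (67), Lmo2 (58) and Myb (58) were the most frequent, and Mecom was in 0 cells. Of the 13 others in at least 10 cells, 3 (Runx1, Hoxa9 and Lmo2) were at 0.3 or more with Hoxa10, against 0.61% of all genes, and 1 (Meis1) at -0.3 or less, against 1.06%. With Skap2, 4 of 14 (Runx1, Lmo2, Hoxa9 and Hoxa10) were at 0.3 or more, against 0.871%. The list holds members and Runx1, chosen with these values known, so its counts are no independent evidence. In the PAR bZIP family, Tef and Dbp, related activators, were in 11 and 22 cells and Nfil3, a repressor of the same sites, in 28; their rho with Hoxa10 ran from -0.011 to 0.083. Among RNA-binding genes, Igf2bp3 was in 54 cells, Syncrip in 43, Lin28b in 12 and Lin28a in 0, and Msi1 was not listed. None of the 4 RNA-binding genes tested reached 0.3 with Msi2, against 0.299% of all genes. Of the Skap2 partners, Lyn (52 cells), Fyb (32), Fyn (21) and Ptk2b (21) were the most frequent. None of 7 partners reached 0.3 with Skap2, against 0.871% of all genes. Of the partners, Fyn (0.25) and Apbb1ip (0.18) were highest with Hoxa10. With 4 and 7 genes, a count of 0 does not set either list apart from other genes.

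The genes most like each member, by rho over the 8033, were named by rule. For Hoxa9 they were Hoxa10, Runx1 (0.49), Ergic3, Gchfr and Mpp1 (0.41 to 0.40), and for Hoxa10 they were Runx1, Hoxa9, Skap2, the sorting nexin gene Snx2 (0.49) and Fkbp1a (0.46). For Meis1 they were the receptor adaptor gene Frs2 (0.48), Creg1, Plac8, March5 and the cytotoxic granule gene Nkg7 (0.44). For Hlf, over 8034 genes, they were Klhdc5 (0.41), Tyw5, Clint1, Runx1 and Anapc4 (0.38), with neither Hox gene among them. For Skap2 they included Hoxa10, Ccdc115 (0.47), the actin nucleation gene Arpc1b and the chemokine gene Ccl9 (0.42). For Msi2 they were U2surp (0.43), Fbxo38, Prpf38a, Znrf1 and Ppp2ca (0.35), of which U2surp and Prpf38a encode splicing proteins. Frs2 was in 23 cells and shared 13 of them with Meis1, where independent shares would give 6.36. It was picked by its rho in these same cells, so the shared count is no separate evidence.

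**Figure D5:**
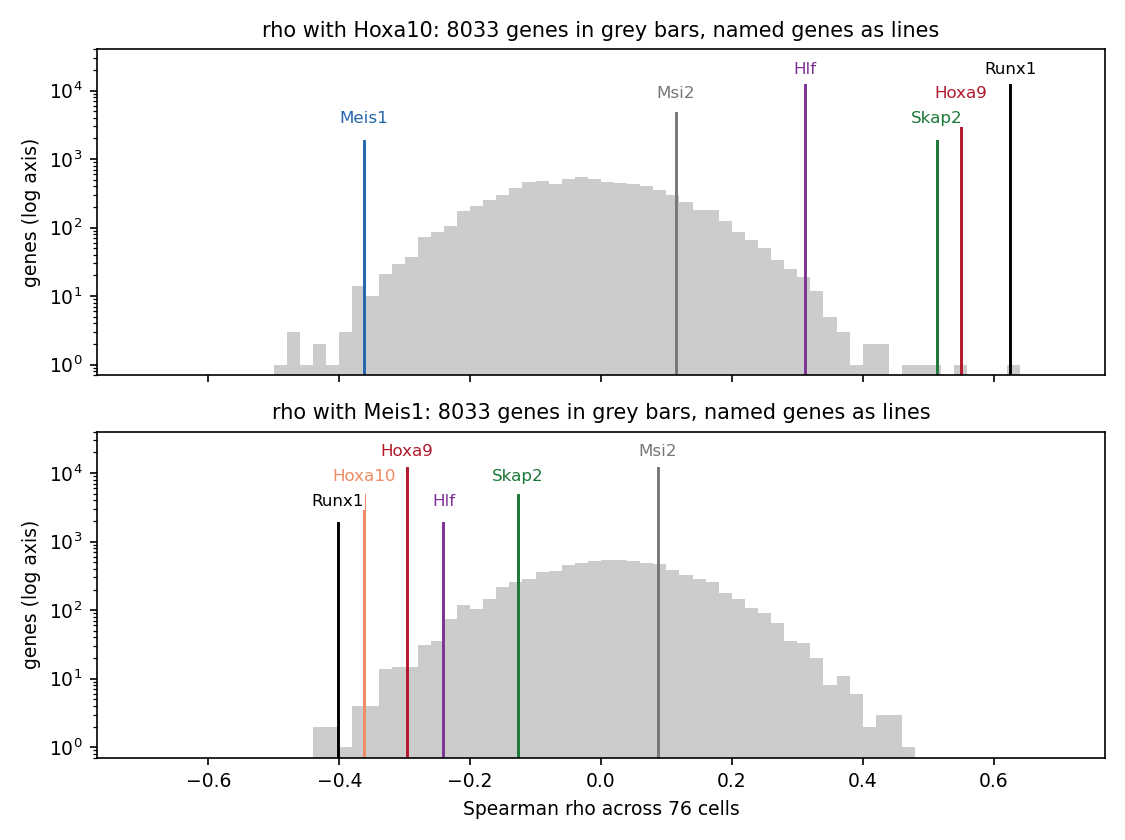
Distribution of Spearman rho (x axis) of 8033 genes with Hoxa10 (top) and with Meis1 (bottom) across 76 cells, with the number of genes on a log axis and the named genes as lines. Runx1, Hoxa9 and Skap2 lie at the upper end for Hoxa10, Runx1 and Hoxa10 lie near the lower end for Meis1, and Msi2 lies inside both distributions.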

How the data were processed

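Single iHPCs were sorted, and the labels' protocols name 2 Vazyme kits, Discover-sc WTA V2 for amplification and TruePrep V2 for libraries. The submitters' processing notes list StringTie 1.3.4, HISAT2 2.1.0, SAMtools 0.1.19, bcl2fastq and the mm10 build, with no order. The authors deposited TPM per gene and cell. Each cell sums to 1000000 TPM over the listed genes, so depth is unknown, and neither annotation nor gene filter is stated in the sources used here. All 76 columns matched a title.

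Detection was a value of 1 TPM or higher. Shares carry exact Clopper-Pearson 95% intervals, and 0 of 76 cells allows 3.95% by 3 counts. Intervals cover counting error only. Co-detection was set beside the product of shares only, and only rho was set beside a background of all genes. Correlations are Spearman's across cells (written rho), ranked among genes detected in 10 or more cells, and 0.3 served as a descriptive limit. Ranks were compared without a test. The correlation step was tested on simulated data with known relations. Python 3.11.15, numpy 2.4.6, scipy 1.17.1 and pandas 2.3.3 were used.

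The members and 14 gene lists were chosen with earlier results of these data known. The lists held 176 genes, of which 121 were listed, 2 under an older symbol (Hnrpdl and Sfpi1). Named were the members, Runx1, listed genes within 500 kb of the Hox pair, the 5 genes most like each member in 10 or more cells, and per list the 4 members in most cells and the 2 with the highest rho with Hoxa10; others were chosen after their values were seen, and a few genes under the rule are not reported here. Promoters came from RefSeq, which matched all 6 members. Alternatives were other detection limits, ranges of title numbers, cells with at least 3500 genes, Pearson correlation, a pseudocount of 0.1, low values set to 0, genes detected regressed out, leaving out 2 cells and rescaling without ribosomal-protein genes; regression on Runx1 was added after seeing the data.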

Additional observations from a re-analysis of the deposited data

How the results depend on the processing

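Values count as moved here if a share lies outside the 95% interval first given, or if a rho shifts by over 1 SD of the first gene's rho values across all genes. Of 36 shares recomputed for single genes 29 stayed and 7 moved, of 90 for pairs 73 stayed and 17 moved, and of 145 rho values 122 stayed and 23 moved. No rho of 0.3 or more in size changed sign. At 10 TPM, detection was 14.5% for Hoxa9, 23.7% for Hoxa10, 80.3% for Skap2 and 35.5% for Msi2. Skap2 was in 81.6% of cells at 5 TPM and 97.3% within title numbers 2 to 6, and Meis1 in 44.7% at any value above 0. At 10 TPM, Hoxa9 was found with Hoxa10 in 11.8%, with Meis1 in 0%, with Skap2 in 13.2% and with Msi2 in 2.63% of cells, Hoxa10 with Skap2 in 22.4% and with Msi2 in 10.5%, and Skap2 with Msi2 in 25%. At 5 TPM, Hoxa10 with Msi2 were in 11.8% and Skap2 with Msi2 in 32.9%. At any value above 0, Meis1 was found with Hoxa10 in 10.5%, with Msi2 in 34.2% and with Skap2 in 40.8%, and Skap2 with Msi2 in 63.2%. Within title numbers 7 to 11, Meis1 was with Hoxa9 in 0% and with Hoxa10 in 0% of cells, and Skap2 with Msi2 in 38.5%, against 64.9% within 2 to 6.

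The rho of Hoxa9 with Hoxa10 was 0.73 within title numbers 2 to 6 and 0.68 in cells with at least 3500 genes. Within 2 to 6, it was -0.072 for Hoxa9 with Meis1, 0.47 for Hoxa9 with Skap2, -0.18 for Meis1 with Msi2 and -0.020 for Skap2 with Msi2. Within 7 to 11 it was -0.45 for Hoxa9 with Meis1, 0.47 for Hoxa10 with Hlf, 0.43 for Hoxa9 with Hlf, 0.27 for Meis1 with Msi2 and -0.34 for Skap2 with Msi2. With low values at 0, Hoxa10 with Meis1 was -0.23. For Hoxa10 with Skap2 the Pearson r was 0.39 at a pseudocount of 1 and 0.38 at 0.1. With the rank of Runx1 regressed out, Hoxa9 had 0.36 with Hoxa10, -0.12 with Meis1, 0.22 with Skap2 and 0.12 with Hlf. Hoxa10 then had -0.15 with Meis1 and 0.095 with Hlf, Meis1 had -0.099 with Hlf and 0.010 with Skap2, and Hlf had -0.050 with Skap2. Hlf was above 0 in under 5 cells of title numbers 2 to 6, so no rho was computed there. The cause of these shifts was not tested. No paired analysis was possible because all cells belong to 1 group. Depth is unknown, so a gene at 0 can be a failed capture.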

Other observations

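By rho with Hoxa10 the 5 lowest of 8033 genes were Nfix, a nuclear factor I gene (-0.49), Nkg7 (-0.48), the T cell kinase gene Lck (-0.47), the respiratory chain gene Uqcrq (-0.46) and the ribosomal-protein gene Rps18 (-0.45). They were chosen after their values were seen. Nfix and Hoxa10 shared 7 cells against 16.2 from independent shares, and Lck and Hoxa10 shared 11 against 16.2. Nkg7 was also among the 5 lowest with Hoxa9 (-0.42) and with Runx1 (-0.62), and among the 5 highest with Meis1 (0.44). Runx1 and Plscr1, a phospholipid scramblase gene (-0.43), were among the 5 lowest with Meis1. So were Mgst2, a glutathione transferase gene, and the GTPase gene Arl5a, each found in 1 Meis1 cell where independent shares would give 7.18 and 7.74. All genes of this paragraph were picked by rho in these same cells, so their shared counts are no separate evidence.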
